A study of Mus musculus with 14 samples.

Results

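The 10 genes described here encode 7 matrix metalloproteinases, Mmp2, Mmp3, Mmp9, Mmp11, Mmp13, Mmp14 and Mmp16, and 3 of their tissue inhibitors, Timp1, Timp2 and Timp3. They were chosen by name and read out of 39179 genes in the differentiation experiment and 35886 genes in the sorting experiment. RNA-sequencing was performed on Ocy454 cells, a mouse osteocyte-like line that carries a thermosensitive large T antigen, divides at 33 °C and differentiates at 37 °C. In the differentiation experiment, cells in 2D culture on plastic were collected after 1, 7, 10 and 14 days at 37 °C, with 2 replicates per day and 8 libraries in all. In the sorting experiment, live cells from day 17 were stained with a fluorescent antibody to CD61 (integrin β3, encoded by Itgb3) and the 10% with the strongest and the 10% with the weakest signal were collected as CD61high and CD61low, with 3 replicates each and 6 libraries in all. The labels of all 14 libraries name 1 cell line and no drug or genetic change, and such a culture has neither mineralized bone nor the other cell types of bone.

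Matrix metalloproteinases are zinc-dependent endopeptidases that are made as inactive precursors and cut collagens, gelatin, proteoglycans and signalling proteins outside the cell. Most are secreted, while the membrane-type enzymes stay anchored at the cell surface, and TIMP proteins bind the active site and block it. In bone, osteocytes use such enzymes, Mmp13 among them, to remodel the matrix around their lacunae, and Mmp14 is needed for normal collagen turnover and for osteocyte processes.

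The differentiation libraries held 27518605 to 34311238 reads on genes and the sorted libraries 18815602 to 19220064 estimated counts. Of the 10 genes, 9 entered the test in the time course (all but Mmp3) and 8 in the sort (all but Mmp3 and Mmp9). A gene was called where its adjusted p was below 0.01 and its Log2FC was above 1 or below -1. The gene for the sorted protein, Itgb3, was higher in CD61high cells with a Log2FC of 4.30 (edgeR's quasi-likelihood test, adjusted p = 3.31e-08). Osteoblast and osteocyte markers were present, with 6 to 10 of 12 above 1 CPM in each group, although Sost and Mepe were listed at 0 at day 1 and Fgf23 at 0 on all days. Of the 12 macrophage and osteoclast markers, only Cd68 and Ctsk exceeded 1 CPM, and Calcr, Dcstamp and Adgre1 were at 0 in every library. The summed level of that list was 64.1 to 90.7 CPM over the days and 26.9 to 35.2 CPM in the sort. Most of it over the days was Ctsk, with day means of 61.2 to 87.4 CPM. In the CD61low and CD61high groups Ctsk averaged 18.6 and 21.2 CPM and Cd68 14.2 and 8.07 CPM. Endothelial and adipocyte lists summed to at most 0.861 and 0.774 CPM in any library.

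Promoter sequences are shown for Mmp13, which had the largest Log2FC among the members tested in each experiment. Those of Mmp3, a near-silent gene of the same gene cluster, and of Timp1 and Timp3, which moved in opposite directions in the sort, follow. Each spans 250 bases before to 50 bases after the RefSeq start site (table build GRCm38.p6) and matched the GRCm39 genome at exactly 1 place. Capitals mark matches to an AP-1 motif, TGANTCA, or a RUNX motif, TGNGGT, searched on both strands, so that a RUNX match on the opposite strand reads ACCNCA. The sequences are those of Mmp13 at chr9:7272264-7272563 on the plus strand, Mmp3 at chr9:7445572-7445871 on the plus strand, Timp1 at chrX:20736155-20736454 on the plus strand and Timp3 at chr10:86136026-86136325 on the plus strand (GRCm39).
Mmp13: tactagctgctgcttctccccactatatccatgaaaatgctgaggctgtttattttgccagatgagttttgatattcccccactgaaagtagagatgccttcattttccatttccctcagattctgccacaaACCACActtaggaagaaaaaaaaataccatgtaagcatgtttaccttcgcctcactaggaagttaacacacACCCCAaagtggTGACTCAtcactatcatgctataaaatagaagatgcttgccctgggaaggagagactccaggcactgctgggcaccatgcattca
Mmp3: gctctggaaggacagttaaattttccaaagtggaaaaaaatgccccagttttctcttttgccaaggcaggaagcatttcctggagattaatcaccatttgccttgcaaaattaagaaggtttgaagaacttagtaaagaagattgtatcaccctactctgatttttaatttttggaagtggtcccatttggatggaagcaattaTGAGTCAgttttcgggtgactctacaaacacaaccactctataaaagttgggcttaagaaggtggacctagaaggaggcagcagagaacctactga
Timp1: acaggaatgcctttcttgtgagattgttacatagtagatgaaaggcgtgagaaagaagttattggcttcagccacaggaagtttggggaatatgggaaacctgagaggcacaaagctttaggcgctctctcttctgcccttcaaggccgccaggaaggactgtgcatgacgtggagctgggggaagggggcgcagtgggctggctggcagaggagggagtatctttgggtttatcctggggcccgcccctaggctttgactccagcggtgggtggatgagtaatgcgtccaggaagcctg
Timp3: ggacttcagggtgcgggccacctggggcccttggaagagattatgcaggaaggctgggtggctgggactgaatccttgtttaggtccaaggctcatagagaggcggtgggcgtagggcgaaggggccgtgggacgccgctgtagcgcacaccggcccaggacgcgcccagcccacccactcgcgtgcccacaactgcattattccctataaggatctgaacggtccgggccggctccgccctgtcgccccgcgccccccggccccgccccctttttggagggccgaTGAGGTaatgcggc

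The Mmp13 sequence held an AP-1 match that begins 35 bases before the start site and RUNX matches that begin 118 and 47 bases before it. The Mmp3 sequence held an AP-1 match 46 bases before the start and no RUNX match. Timp3 held a RUNX match 37 bases after the start, and Timp1 and Timp2 held neither set of letters in this window. Sites that differ from these letters were not searched for. Promoters of Mmp11 and Mmp14 each held a RUNX match, 39 and 114 bases before the start. Among 32544 promoters of the same length, 7.8% held the AP-1 letters, 45.9% the RUNX letters and 3.5% both. The matches are descriptions of sequence, and no binding was measured.

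Mmp13 (ENSMUSG00000050578, GRCm39 chr9:7272514-7283331), the collagenase that cleaves fibrillar collagen in bone, was high at day 1, nearly lost by day 7 and partly regained by day 14. It was measured at 91.0 and 97.4 CPM (day 1), 6.15 and 6.20 CPM (day 7), 11.7 and 11.5 CPM (day 10) and 33.5 and 31.7 CPM (day 14). Both day 1 libraries lay above all others, the 2 libraries of each day were close together, and no 2 days overlapped. The mean at day 7 (6.17 ± 0.0331 CPM, SD, n = 2) was 15.3-fold lower than at day 1 (94.2 ± 4.52 CPM, SD, n = 2). On the log2(CPM + 1) scale Mmp13 fell by 3.73 from day 1 to day 7 (SE 0.070, limma, adjusted p = 5.27e-25). It rose by 1.41 from day 10 to day 14 (SE 0.070, limma, adjusted p = 3.73e-15), while the step from day 7 to day 10 was 0.81 and stayed under the fold threshold. Day 14 remained below day 1, with a Log2FC of -1.50 (limma, adjusted p = 2.06e-16). In such bulk samples, fewer cells that express a gene and less RNA per cell cannot be told apart.

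In the sort, Mmp13 was far higher in CD61high than in CD61low cells, and cells with a signal between these groups were not sequenced. The CD61low libraries held 76, 61 and 78 estimated counts and the CD61high libraries 511, 482 and 531. After TMM scaling these were 3.64, 2.86 and 3.81 CPM in CD61low cells and 29.98, 27.8 and 31.2 CPM in CD61high cells, so that the lowest CD61high library was far above the highest CD61low library (Log2FC 3.11, SE 0.13, edgeR's quasi-likelihood test, adjusted p = 2.03e-07). Ranked per length (TPM) among 12077 genes, Mmp13 moved from place 11007 in CD61low cells to 6237 in CD61high cells. The gene has 1 annotated transcript in these data, and across the 6 leave-one-out fits its Log2FC stayed between 2.98 and 3.17.

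Mmp13 lies at 1 end of a cluster of 10 Mmp genes on chromosome 9, and it was the only one with more than trace expression. Over the 8 differentiation libraries it collected 9308 reads, whereas Mmp8 collected 26, Mmp3 14, Mmp20 6, Mmp10 4 and Mmp27 1. Mmp12, Mmp1a, Mmp1b and Mmp7 had 0 reads in the time course and 0 counts in the sort.

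**Figure D1:**
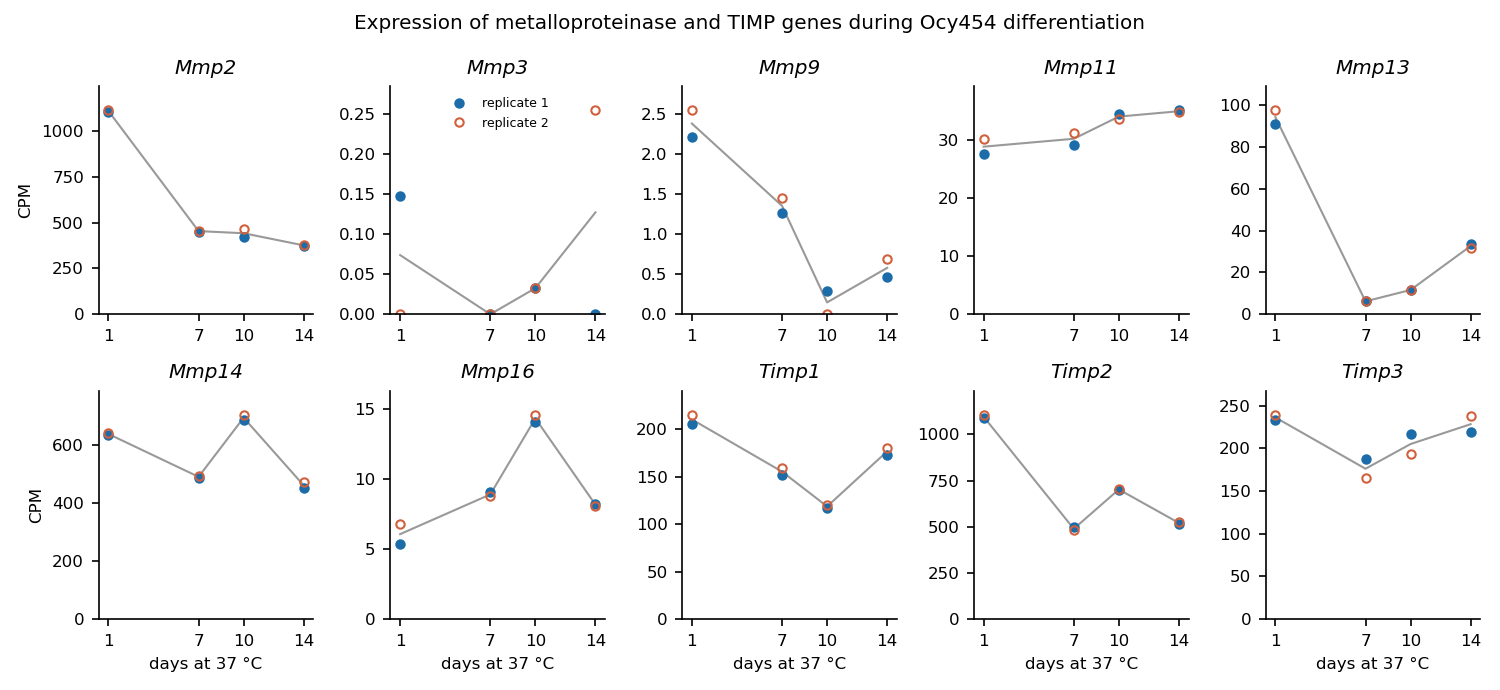
CPM of each of the 10 genes (vertical axes, each from 0 and with its own scale) against days at 37 °C. Points are single libraries, filled for replicate 1 and open for replicate 2, and lines join the means of 2. Mmp2, Mmp9, Mmp13, Timp1 and Timp2 were highest at day 1, Mmp14 and Mmp16 were highest at day 10, and Mmp3 was at or near 0 throughout.

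Mmp2 (ENSMUSG00000031740, GRCm39 chr8:93553902-93580049) encodes gelatinase A, which degrades denatured collagen and basement membrane proteins and is activated at the cell surface by Mmp14 together with Timp2. It was measured at 1106 and 1111 CPM (day 1), 450.5 and 456 CPM (day 7), 419.7 and 464 CPM (day 10) and 373 and 377 CPM (day 14). Day 1 stood clear of all later days, and the libraries of days 7 and 10 overlapped. Mmp2 fell by 1.29 from day 1 to day 7 (SE 0.040, limma, adjusted p = 3.7e-20) and was 2.95-fold lower at day 14 than at day 1 (limma, adjusted p = 3.37e-22). Between days 7 and 10 its Log2FC was -0.04 (limma, adjusted p = 0.407), with a sign that turned when quantile normalization was used or day 10 replicate 1 was left out (0.00 and 0.03).

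Sorted cells showed the opposite order for Mmp2. Values were 173, 172 and 171 CPM after TMM scaling in CD61low cells and 383, 384 and 389 CPM in CD61high cells. The groups did not overlap, and the spread within each was under 4 CPM (SD 1.21 and 2.99, n = 3). Mmp2 rose by 1.16 in CD61high cells (SE 0.062, edgeR's quasi-likelihood test, adjusted p = 4.73e-07). With library size alone in place of TMM, which shifts the median Log2FC of all genes from 0.00 to -0.30, its Log2FC was 0.86 and under the fold threshold. The transcript Mmp2-201 made up 98.2% to 99.8% of the summed TPM of the gene in every sorted library.

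Mmp9 (ENSMUSG00000017737, GRCm39 chr2:164780439-164797771), gelatinase B, was a low-abundance gene. The libraries held 75 and 81 reads (day 1), 42 and 41 reads (day 7), 9 and 0 reads (day 10) and 16 and 19 reads (day 14). It passed the filter through days 1 and 7 alone, where it reached 2.21 and 2.54 CPM and 1.26 and 1.44 CPM, so that lower values on other days were part of how it came to be tested. Its differences are therefore given as a description, with no test. On the log2(CPM + 1) scale, which understates changes of so low a gene, the Log2FC was -1.05 from day 7 to day 10 (-0.86 without day 10 replicate 2 and -0.99 without day 7 replicate 2) and -1.10 from day 1 to day 14 (-0.997 without day 14 replicate 1). As ratios of mean CPM, day 10 was 9.15-fold lower than day 7 and day 14 was 4.11-fold lower than day 1. From day 10 to day 14 the mean CPM was 3.92-fold higher, with a Log2FC of 0.47, or 1.99 from edgeR on recovered reads and 1.75 with a pseudocount of 0.1, but day 10 rests on 9 and 0 reads.

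Mmp9 counts in the sort were 14, 45 and 19 in CD61low cells and 3, 6 and 6 in CD61high cells. All CD61high libraries were lower, but CD61low replicate 2 held more than the other two CD61low libraries together. In the fit with no filter on low counts, the Log2FC was -2.06 (SE 0.597, edgeR's quasi-likelihood test, adjusted p = 0.0125), which missed the threshold. The transcripts Mmp9-201 and Mmp9-202, the latter a retained intron, shared the summed TPM of CD61low replicate 2 as 63.4% and 36.6%, while Mmp9-201 took all of it in the other libraries.

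Stromelysins were represented by Mmp3 and Mmp11. Mmp3 (ENSMUSG00000043613, GRCm39 chr9:7445822-7455975), stromelysin-1, held 5, 0, 0, 0, 1, 1, 0 and 7 reads in the 8 differentiation libraries in order of day and replicate, and 0, 3 and 1 counts in CD61low and 0 counts in all 3 CD61high libraries. A count of 0 allows a level of up to 3 reads, which is 0.0874 to 0.109 CPM in the differentiation libraries, and no difference between groups was detectable at this depth. Mmp11 (ENSMUSG00000000901, GRCm39 chr10:75759055-75772330), stromelysin-3, an enzyme that furin activates inside the cell, varied little over the days, from 27.5 and 30.1 CPM at day 1 to 35.0 and 34.7 CPM at day 14. Its Log2FC between those days was 0.27, and no comparison of days called it. In the sort it was measured at 63.7, 65.7 and 60.1 CPM in CD61low cells and 38.0, 46.5 and 42.0 CPM in CD61high cells. These groups did not overlap, but the Log2FC of -0.58 (SE 0.088, edgeR's quasi-likelihood test, adjusted p = 0.000334) stayed under the fold threshold.

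**Figure D2:**
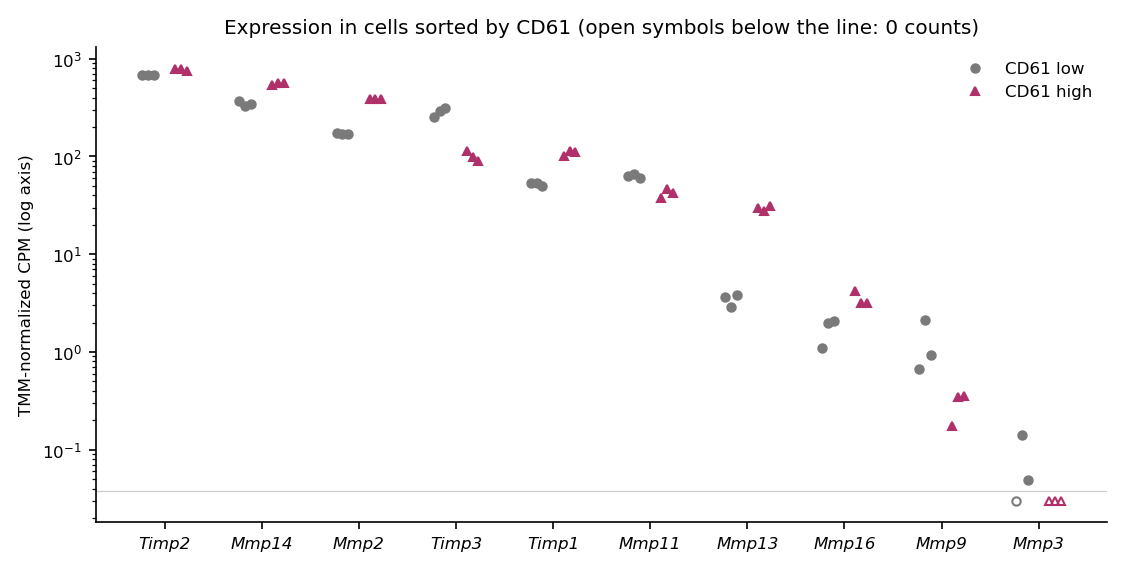
TMM-normalized CPM (log axis) of the 10 genes in the 3 CD61low (circles) and 3 CD61high (triangles) libraries, replicates 1 to 3 from left to right, genes in order of mean level. Libraries with 0 counts are drawn as open symbols below the line. Mmp13, Mmp2, Mmp14, Timp1, Mmp16 and Timp2 are higher in all CD61high libraries on this scale, although Timp2 turns lower with library size alone, and Timp3, Mmp11 and Mmp9 are lower in all of them.

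Mmp14 (ENSMUSG00000000957, GRCm39 chr14:54668878-54682821), the membrane-anchored collagenase that activates the Mmp2 precursor, was high on every day and was called in no comparison. It was measured at 637 and 641 CPM (day 1), 487 and 496 CPM (day 7), 687 and 704 CPM (day 10) and 451 and 472 CPM (day 14). Day 10 was the highest and day 14 the lowest, with no overlap between any 2 days. The steps between successive days were -0.38, 0.50 and -0.59 on the log2(CPM + 1) scale, each with an adjusted p of 7.09e-10 or lower in limma and each under the fold threshold.

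Sorted cells held 367, 330 and 348 CPM of Mmp14 in the CD61low group and 542, 569 and 566 CPM in the CD61high group. The groups did not overlap, and the Log2FC of 0.68 (SE 0.069, edgeR's quasi-likelihood test, adjusted p = 2.25e-05) was again under the fold threshold. The transcript Mmp14-201 gave 84.5% to 92.3% of the summed TPM, and the retained-intron transcript Mmp14-204 gave 4.87% to 12.2%, with ranges that overlapped between the sorted groups.

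Mmp16 (ENSMUSG00000028226, GRCm39 chr4:17852844-18125390), another membrane-type enzyme, was far less abundant than Mmp14 per length, at 1.00 to 2.36 CPM per kilobase in the day means against 178 to 269. Values were 5.37 and 6.77 CPM (day 1), 9.06 and 8.77 CPM (day 7), 14.1 and 14.6 CPM (day 10) and 8.25 and 8.10 CPM (day 14). As for Mmp14, day 10 was the highest, but day 1 was the lowest and no comparison of days called the gene. In the sort, counts of 23, 42 and 42 in CD61low and 72, 55 and 54 in CD61high cells corresponded to 1.10, 1.97 and 2.05 CPM and 4.22, 3.17 and 3.18 CPM after TMM scaling. Mmp16 rose by 1.04 in CD61high cells (SE 0.27, edgeR's quasi-likelihood test, adjusted p = 0.00875), a call at the edge of the threshold. It was lost in 5 of 6 leave-one-out fits (0.80 to 1.17 over all 6), and with an offset for transcript length the Log2FC was 0.48 (edgeR's quasi-likelihood test, adjusted p = 0.372). The methods describe 3 independent groups of cells in the sort, and with the replicate number as a block the call was also lost (Log2FC 1.05, edgeR's quasi-likelihood test, adjusted p = 0.0212). The share of the transcript Mmp16-201 in the summed TPM ranged from 2.44% to 82.3% between libraries.

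Of the inhibitors, Timp2 (ENSMUSG00000017466, GRCm39 chr11:118191887-118246566), which blocks Mmp2 and also helps Mmp14 to activate it, had the highest level of the 3 in CPM per kilobase at days 1 and 10, and Timp1 at days 7 and 14. In CPM it was measured at 1088 and 1104 CPM (day 1), 497 and 481 CPM (day 7), 699 and 705 CPM (day 10) and 516 and 525 CPM (day 14). Day 1 lay above all later days and day 10 above days 7 and 14. Timp2 fell by 1.16 from day 1 to day 7 (SE 0.035, limma, adjusted p = 2.39e-20) and was lower at day 14 than at day 1 by a Log2FC of -1.07 (limma, adjusted p = 9.74e-20).

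In the sort, Timp2 was at 685, 688 and 674 CPM in CD61low and 789, 792 and 744 CPM in CD61high cells. Its Log2FC of 0.18 (edgeR's quasi-likelihood test, adjusted p = 0.0355) was not called, and its sign depended on the scaling. With library size alone it was -0.12 (edgeR's quasi-likelihood test, adjusted p = 0.148), and TPM values were lower in CD61high cells, at 333, 311 and 301 against 337, 349 and 349. Cep295nl, which overlaps Timp2 on the same strand, reached at most 4.19 CPM over the days and 2.44 CPM in the sort.

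Timp1 (ENSMUSG00000001131, GRCm39 chrX:20736316-20740976), an inhibitor of most secreted metalloproteinases that acts poorly on membrane-type enzymes, was called in no comparison of days. It was measured at 206 and 215 CPM (day 1), 151 and 159 CPM (day 7), 117 and 120.3 CPM (day 10) and 173 and 180.5 CPM (day 14). Day 10 was the lowest, which is the day at which Mmp14 and Mmp16 were highest, and no 2 days overlapped. In sorted cells Timp1 was at 53.4, 54.1 and 49.6 CPM in the CD61low group and 100.7, 113 and 112 CPM in the CD61high group. Timp1 rose by 1.05 in CD61high cells (SE 0.076, edgeR's quasi-likelihood test, adjusted p = 2.52e-06), or by 0.99 and 0.75, both under the fold threshold, without CD61low replicate 3 and with library size alone. Both of its annotated transcripts were used, with Timp1-202 at 53.5% to 67.3% of the summed TPM. The gene lies within Syn1 on the opposite strand, which reached at most 8.12 CPM over the days and 18.9 CPM in the sort.

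Timp3 (ENSMUSG00000020044, GRCm39 chr10:86136236-86185371) encodes the inhibitor that is bound to the extracellular matrix and also blocks ADAM-family proteinases. Of the 8 genes tested in the sort, it was the only 1 called lower in CD61high cells. It was at 253, 290 and 310 CPM in CD61low cells and at 114, 98.1 and 89.8 CPM in CD61high cells, a 2.83-fold difference with no overlap. Mmp9, which the filter left out of the sort, had a 4.24-fold lower mean in CD61high cells, on low counts. Timp3 fell by 1.499 in CD61high cells (SE 0.105, edgeR's quasi-likelihood test, adjusted p = 1.92e-06), and it was called in all 6 leave-one-out fits (-1.60 to -1.43). Over the days Timp3 was measured at 234 and 239 CPM (day 1), 187 and 165 CPM (day 7), 216 and 194 CPM (day 10) and 219 and 237 CPM (day 14). Days 1 and 14 overlapped, with a Log2FC of -0.05 (limma, adjusted p = 0.388) that became 0.01 without day 14 replicate 1. The day 7 libraries were the lowest, and the largest step, -0.42 from day 1 to day 7, was under the fold threshold.

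**Figure D3:**
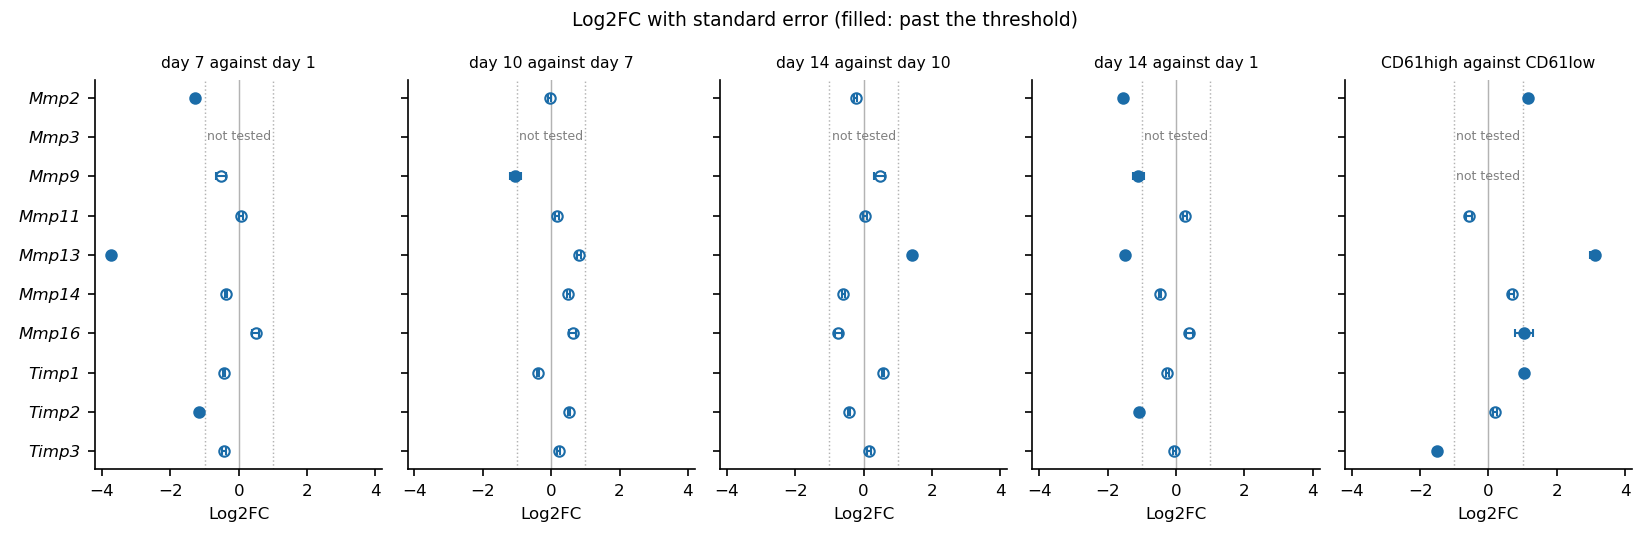
Log2FC (horizontal axis) of the tested genes in the 4 comparisons of days, on log2(CPM + 1) from limma, and in the sort, from edgeR, with bars of 1 standard error. Filled points passed the adjusted p of 0.01 and the Log2FC threshold of 1, marked by dotted lines. Nothing is read from whether Mmp9 passed, since it was tested only through its higher days. Mmp13 and Mmp2 lie to the left in day 7 and day 14 against day 1 and to the right in the sort, and Timp3 lies furthest to the left in the sort.

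As a group, 3 of 9 tested genes were called lower at day 7 than at day 1 (Mmp13, Mmp2 and Timp2), against 4.62% of all 12725 genes tested. None was called higher by limma, where 4.49% of all genes (571) were, or by edgeR on recovered reads, which called 876 genes higher. In limma 1 gene (Mmp16) was higher at an unadjusted p below 0.05. From day 7 to day 10, 1 gene passed the threshold as lower, against 0.786% of all genes, but it was Mmp9, which was tested only because of its higher days, and nothing is read from this count. No gene was called higher by either tool, against 1.43% of all genes (182) in limma and 334 genes in edgeR. Still, 6 were higher in limma at an unadjusted p below 0.05. From day 10 to day 14, 1 gene was called higher by limma (Mmp13), against 2.09% of all genes (266). EdgeR on recovered reads gave 2, against 504 genes in all, the other being Mmp9, from which nothing is read for the same reason. None was called lower by limma, against 0.872% of all genes (111), or by edgeR, which called 227 genes lower. In limma 4 were lower at an unadjusted p below 0.05.

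Comparison of day 14 with day 1, which shares the day 1 libraries with the comparison of day 7 and the day 14 libraries with that of day 10 (as successive steps share the day between them), called 3 genes lower (Mmp2, Mmp13 and Timp2), against 5.9% of all genes. Mmp9 also passed the threshold, which makes 4 of 9, but it was tested only through its higher days and is left out of this reading. Neither limma nor edgeR on recovered reads called a gene of the group higher. Of all genes, limma called 7.51% higher, and edgeR called more genes higher than limma did. In limma Mmp11 and Mmp16 were higher at an unadjusted p below 0.05. In the sort, 4 of 8 tested genes were called higher in CD61high cells (Mmp13, Mmp2, Timp1 and Mmp16), against 4.84% of 12077 genes, and 1 was called lower (Timp3), against 4.37%. The count of genes higher was 3 in each of the 6 fits that left out 1 library, with edgeR's filterByExpr, with the length offset and with the replicate block. With library size alone it was 1, Mmp13. Median Log2FC values of the 5 tested proteinases and of the 3 inhibitors in the sort were 1.04 and 0.18, beside 0.00 over all genes. These counts and medians leave out Mmp9 and Mmp3, which had too few counts for the filter, Mmp9 only in CD61high cells. In the fit with no filter their Log2FC values were -2.06 and -3.42 (SE 0.597 and 2.17), that of Mmp3 on at most 3 counts in any library. The set tested in the sort was thus short of genes that were low in CD61high cells. The summed level of the 12 osteoblast and osteocyte markers moved with this comparison, from 17690 to 21620 CPM in CD61low libraries to 50270 to 52990 CPM in CD61high libraries, as did 7 chondrocyte markers, from 38.7 to 48.6 CPM to 100.2 to 117 CPM. Most of the first sum was Col1a1 (means of 17660 and 44790 CPM) and most of the second Sox9 (36.7 and 94.5 CPM). Of the tested markers, 9 of 10 and 3 of 4 were called higher, and Pdpn was at 15.5 and 11.1 CPM. Their part in these differences was not tested.

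Levels were compared between genes only per length. In CPM per kilobase of the deposited gene length, the order at day 1 was Mmp2 (366), Timp2 (268), Mmp14 (247), Timp1 (213), Mmp13 (35.4), Timp3 (27.6), Mmp11 (13.1), Mmp16 (1.00) and Mmp9 (0.675), and no neighbours overlapped. Mmp2 was then in place 54 of 12725 genes on this scale, Timp2 in place 90 and Mmp14 in place 100. With the length of each gene's main transcript in the sort instead, an alternative chosen after seeing the data, Timp3 (50.01) came before Mmp13 (35.25) at day 1. By day 14 Timp1 (179) and Mmp14 (178) led with overlapping libraries, followed by Timp2 (127) and Mmp2 (124) in CPM per kilobase of the deposited length, and Mmp2 had moved to place 315. Mmp13 went from place 1722 at day 1 to 9527 at day 7 and 4908 at day 14 by the deposited lengths.

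Summed over the 7 proteinases, the level per length was 660 and 667 CPM per kilobase at day 1 and 328 and 337 at day 14. For the 3 inhibitors the sums were 503 and 516 CPM per kilobase at day 1 and 327 and 339.5 at day 14. The ratio of proteinases to inhibitors was 1.31 and 1.29 (day 1), 1.19 and 1.21 (day 7), 1.35 and 1.41 (day 10) and 1.00 and 0.992 (day 14). Day 10 was thus the highest and day 14 the lowest, and no 2 days overlapped. The ratios depend on the gene lengths used. With the main transcript lengths they were 1.133 and 1.116 (day 1), 1.02 and 1.04 (day 7), 1.15 and 1.21 (day 10) and 0.852 and 0.842 (day 14), so that the order of the days was kept but day 14 was below 1. At day 1 Mmp2 supplied 55.4% and 55.0% of the summed proteinase level and Mmp14 37.3% and 37.1%, while at day 10 the shares were 32.5% and 34.3% for Mmp2 and 62.2% and 60.8% for Mmp14.

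Among sorted cells the same ratio, in TPM, was 0.765, 0.727 and 0.746 in CD61low and 1.05, 1.03 and 1.10 in CD61high libraries, so that the groups did not overlap. Timp3 made up 18.7%, 20.4% and 22.6% of the summed inhibitor TPM in CD61low cells and 7.13%, 5.87% and 5.46% in CD61high cells, and Timp1 24.1%, 23.6% and 22.1% against 38.0%, 40.7% and 42.6%. Mmp14 contributed most of the proteinase TPM in both, between 58.4% and 62.6% in all 6 libraries. The ratio of Mmp2 to Timp2 TPM was 0.319 to 0.327 in CD61low and 0.623 to 0.687 in CD61high cells. Ratios of the 2 experiments were not compared, since RNA was isolated with different kits and lengths were defined differently; for Timp3 the deposited gene length was 8556 bases, and its main transcript in the sort is 4722 bases long. These levels are of RNA, and neither protein nor proteolytic activity was measured.

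**Figure D4:**
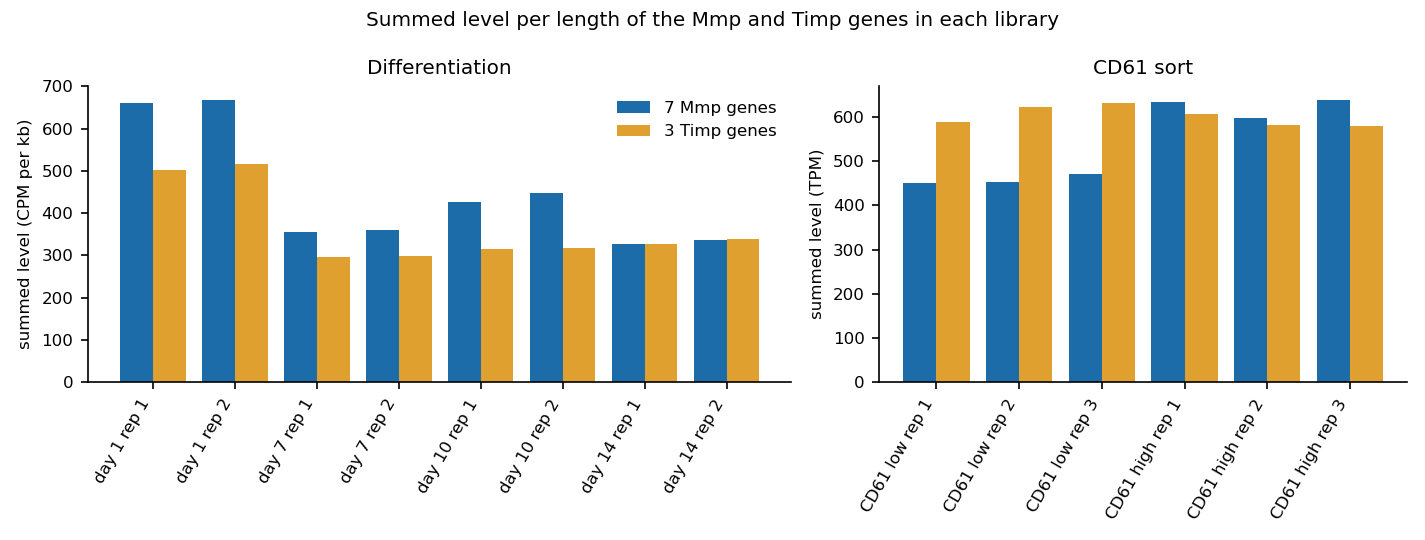
Summed level per length of the 7 Mmp genes (blue) and the 3 Timp genes (yellow) in each library, in CPM per kilobase for the days (left) and in TPM for the sort (right), from 0. The Mmp sum exceeds the Timp sum at days 1, 7 and 10, is level with it at day 14 (but below it with main transcript lengths), is below it in CD61low cells and is slightly above it in CD61high cells.

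Of 17 further genes (the other metalloproteinases and Timp4), 5 were tested in the time course and 4 in the sort. Mmp23, a membrane-bound member, was lower at day 7 than at day 1 (Log2FC -1.17, against 4.62% of all genes called lower) and at day 14 than at day 1 (-1.81, against 5.9%), with means of 32.0 CPM at day 1 and 8.43 CPM at day 14. Mmp15, a membrane-type enzyme, had day means of 2.66, 1.75, 0.912 and 0.386 CPM in order of time. It passed the filter only through days 1 and 7, so that its Log2FC of -1.40 at day 14 against day 1 is a description, with no test. In the sort Mmp19 was the only 1 of 4 called, lower in CD61high cells with a Log2FC of -1.06, where 4.37% of all genes were called lower. Mmp15 was not tested there. It was at 2.53 to 2.68 CPM in CD61low libraries and at 0.176 to 0.471 CPM in CD61high libraries, with no overlap, which is also given as a description.

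Genes that activate, inhibit or clear metalloproteinases moved in both directions. Of 15 tested, 3 were higher and 3 lower at day 7 than at day 1, beside 4.49% and 4.62% of all genes. Pcsk6, a furin-like proprotein convertase, was higher with a Log2FC of 4.32 (means 42.6 and 868 CPM), and Reck, a membrane-anchored metalloproteinase inhibitor, with 2.37. Cav1 (caveolin) and Thbs2, a thrombospondin that binds Mmp2 for its clearance, were lower, with Log2FC values of -2.58 and -2.42. At day 14 against day 1, which shares the day 1 libraries, 4 were higher and 4 lower, beside 7.51% and 5.9% of all genes, led by Pcsk6 (4.38), the proteoglycan Spock2 (-2.34), Thbs2 (-2.32) and Reck (2.19). In the later steps Spock2 was lower at day 10 than at day 7 (-1.74), against 0.786% of all genes. Bsg, an inducer of metalloproteinases also called basigin, was higher at day 14 than at day 10 (1.18), against 2.09%. In the sort 14 were tested, and 2 were called, Pcsk6 higher (1.43) and Cav1 lower (-2.80) in CD61high cells, beside 4.84% and 4.37% of all genes. The median Log2FC of this list was 0.35 in the sort and -0.49 at day 14 against day 1.

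Of 20 known or proposed transcriptional regulators of Mmp13, 19 were tested. At day 7 against day 1, where Mmp13 fell, Sp7, Mef2c and Runx2, transcription factors of bone-forming cells, were higher (Log2FC 2.45, 2.13 and 1.03), and the AP-1 subunit Jun was lower (-1.20), against 4.49% of all genes called higher and 4.62% lower. Fosb and Jun, both AP-1 subunits, were higher at day 10 than at day 7 (1.22 and 1.09), against 1.43% of all genes. Etv4, an ETS factor, was lower at day 14 than at day 10 (-1.04), against 0.872%. Against day 1, day 14 had 5 regulators higher (limma, with 3 lower at an unadjusted p below 0.05), against 7.51% of all genes, led by Sp7 (2.34), Fosb (2.22), Mef2c (2.08) and Fos (1.52). In the sort, where Mmp13 was higher, 4 were higher in CD61high cells, Fosb (1.68), Sp7 (1.65), Runx2 (1.23) and Fos (1.21), and none was called lower by edgeR, with 3 lower at an unadjusted p below 0.05. Over all genes 4.84% were called higher and 4.37% lower in the sort. Fos averaged 198 CPM in CD61low and 457 CPM in CD61high cells (SD 37.6 and 154, n = 3). Fosb averaged 73.4 and 236 CPM (SD 22.1 and 91.6, n = 3). In the differentiation libraries Fos and Fosb reached at most 9.24 and 11.45 CPM, so that both were high in both sorted groups. The reason for this was not tested. The median Log2FC of the list was 0.25 in the sort and 0.47 at day 14 against day 1, beside 0.00 and -0.03 over all genes. Sp7 and Runx2 were called higher both at day 7 than at day 1 and in CD61high cells. Jun was called lower at day 7 than at day 1, higher at day 10 than at day 7, and was not called in the sort. Whether these genes act on Mmp13 was not tested.

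Among 23 bone matrix and signalling proteins listed as proteinase substrates, 12 of 18 tested were higher in CD61high cells and 1 was lower, against 4.84% and 4.37% of all genes. Dmp1 (Log2FC 4.29), a phosphoprotein of mineralizing matrix, Pth1r (1.90), the parathyroid hormone receptor, and Col2a1 (1.83), a cartilage collagen at only 0.439 to 0.704 CPM in CD61low cells, had the largest increases, and Col3a1, a fibrillar collagen of soft tissue, was lower (-1.98). The median Log2FC of the list in the sort was 1.18. At day 7 against day 1, 3 of 19 were higher and 4 lower, against 4.49% and 4.62% of all genes, with Ibsp (4.70), Dmp1 (3.51), Col3a1 (-2.70) and Pth1r (2.45) the largest. At day 14 against day 1, 3 were higher and 3 lower, against 7.51% and 5.9% of all genes, led by Dmp1 (4.83), Ibsp (4.27) and Col3a1 (-3.57). Spp1 and Dmp1 were higher at day 10 than at day 7 (1.31 and 1.09), against 1.43% of all genes. Acan, the cartilage proteoglycan aggrecan, was higher at day 14 than at day 10 (1.56), against 2.09%.

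Of 11 other genes of perilacunar remodelling, 8 were tested, and Acp5, Atp6v0d2 and Car2, which serve acid secretion and matrix removal in osteoclasts, stayed at or below 0.427 CPM on all days. Tgfbr2, the type II receptor for TGF-β, and Adamts4, an aggrecanase, were lower at day 7 than at day 1 (Log2FC -1.47 and -1.16), against 4.62% of all genes, and at day 14 than at day 1 (-1.45 and -1.48), against 5.9%. Tgfbr1 (1.15) and the proton pump subunit Atp6v1g1 (1.08) were higher at day 14 than at day 1, against 7.51%. In the sort 1 of 8 was called, Tgfb1, which was higher in CD61high cells (1.29), against 4.84% of all genes.

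Genes with a time course most like those of the most variable members were named by the Pearson correlation of log2(CPM + 1) over the 8 differentiation libraries, among 1693 genes that averaged 5 CPM or more and whose day means span at least a Log2FC of 1, as a description. For Mmp13 they were Masp1 (r = 0.989), Ksr1 (0.987) and Tnfaip8 (0.985), which, like Mmp13, were highest at day 1 and lowest at day 7 in mean CPM. For Mmp9 they were Spock2 (0.981), Gadd45g (0.981) and Pck2 (0.981), all lowest at day 10. For Mmp2 they were Gm2115, Mab21l2 and Slc25a12 (0.998, 0.998 and 0.997), and for Timp2 Phf15, Nqo2 and Daam2 (0.998, 0.997 and 0.997). The 8 points of each correlation are 4 pairs of replicates, so that they follow 4 levels.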

How the data were processed

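Differentiation reads were aligned by the authors with STAR and counted per gene with HTSeq, and CPM values were deposited beside a gene length, with no further scaling. Whole reads were recovered from 100% of these CPM values (within 0.01 of a whole number). For the sorting experiment the authors deposited Salmon's estimated counts and TPM values per transcript. Per the labels the build is GRCm39, and the versions of STAR, HTSeq and Salmon and the strandedness are not given in the sources used here.

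Estimated counts were summed to genes with GENCODE M39, rounded and tested with edgeR 4.0.16 (quasi-likelihood test, TMM over all genes, at least 5 normalized counts in all 6 libraries). CPM values were tested with limma 3.58.1 on log2(CPM + 1), which understates changes of low genes, for genes above 1 CPM in at least 1 library, with 1 fit over all 8 libraries. P-values were adjusted by Benjamini-Hochberg over all genes tested. List genes were matched by Ensembl ID. Scripts were tested on simulated data and run in R 4.3.3 and Python 3.11.15. Alternatives included DESeq2 1.42.0, other scalings, filters and pseudocounts, leaving out single libraries and a replicate block.

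All 10 members are named in every comparison. Of the other lists, changes are given for at most the 4 called genes with the largest absolute Log2FC per list and comparison. Other list genes are named for their levels or as not called. The members and lists were chosen with earlier results of these data known. Replicates are called biologic in the study, and p-values measure the spread between these cultures of 1 cell line. Promoter sequences came from a set built on RefSeq start sites. The copy used here held 7 of the 10 genes, all but Mmp2, Mmp9 and Mmp16.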

Additional observations from a re-analysis of the deposited data

How the results depend on the processing

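Of the 648 member Log2FC values computed under alternatives, 627 kept both their direction and their side of the threshold, as did 279 of 296 counts of calls within 1.5 times. With library size alone, CD61high against CD61low gave 314 genes higher and 981 lower in place of 585 and 528, 1 member higher in place of 4, and a Timp2 Log2FC of -0.12. EdgeR on recovered reads gave 334 higher and 216 lower for day 10 against day 7, 504 and 227 for day 14 against day 10 with 2 members higher, and 876 higher for day 7 against day 1. A pseudocount of 0.1 gave 377 higher and 175 lower for day 10 against day 7, and 425 and 246 for day 14 against day 10 with 2 members higher. Mmp9, which is described with no test, is counted among the members in these comparisons. The mean filter of 5 CPM left 0 members lower for day 10 against day 7, since it removed Mmp9. Leaving out 1 library gave 0 to 1 members lower in that comparison (0 without day 10 replicate 2 or day 7 replicate 2), a Mmp2 Log2FC of -0.11 to 0.0329 in it, and a Timp3 Log2FC of -0.108 to 0.0076 for day 14 against day 1. Quantile normalization gave Mmp2 a Log2FC of 0.00267 for day 10 against day 7. The cause of these differences was not tested unless stated.

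The labels do not say whether a shared replicate number marks a shared group of cells or culture. Deviations of same-numbered libraries correlated at -0.025 to 0.061 between days and at -0.321, 0.22 and -0.061 in the sort. With the replicate block the sort gave 574 genes higher and 509 lower, and 63 of 64 values kept their label. The exception was Mmp16 in the sort (Log2FC 1.05, edgeR's quasi-likelihood test, adjusted p = 0.0212).

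Depth limits Mmp3 and Mmp9. The share of Timp1 and Timp2 reads that come from overlapping genes was not tested.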
